A study of Mus musculus with 2 samples.

Results

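C1q-high Ccl7-high macrophages were the cells of an osteoclast (OC) induction culture that ranked highest, within their library, in the transcripts of the complement chains C1qa, C1qb and C1qc and of the chemokines Ccl7 and Ccl12. They were sought in a pool of cells with at least 5000 unique molecular identifiers (UMIs, each standing for 1 captured mRNA molecule), at least 500 genes and at most 10% mitochondrial UMIs. Pool cells also had at most 2 UMIs over the cycling genes Mki67, Top2a, Aurka and Cdk1 and fewer than 3 over the OC genes Ctsk, Mmp9 and Dcstamp. Each pool cell was scored by the mean of its percentile ranks for the summed C1q share and the summed Ccl7 and Ccl12 share of its UMIs, and the top 15% of each library were taken. This gave 208 of 1389 pool cells in the control library and 284 of 1895 in the mutant library, or 492 of the 12320 barcodes of the series. Because the rule takes a fixed percentage of each pool, the number of members says nothing about how common such cells were in either culture.

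The control library and the LysM-Cre;Arid1afl/fl library, called the mutant library, each came from murine bone marrow-derived monocytes (BMDMs) cultured with 50 ng/ml M-CSF, which keeps macrophages alive, and 100 ng/ml RANKL, which directs them toward OCs, and collected about a day after RANKL was added. LysM-Cre places a recombinase in the Lyz2 locus, so that the floxed part of Arid1a, a DNA-binding subunit of the BAF chromatin remodeling complex, is removed in myeloid cells. For the control animal the labels give no alleles, and they give neither the age nor the number of animals behind a library. With 1 library per genotype there is no replicate check of any difference between genotypes, and a test across samples was not possible. The 95% intervals given below cover counting error and nothing else.

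C1q is the recognition component of the classical complement pathway and is made mainly by tissue macrophages, which also use it to tag dying cells and debris for uptake. Ccl7 and Ccl12, like the neighbouring Ccl2, are monocyte chemoattractant proteins (MCPs) and recruit monocytes through the receptor Ccr2. RANKL drives macrophages toward OCs through Nfatc1 and AP-1 factors, whereas Irf8 and the Id proteins hold that program back.

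The rule genes lie in gene clusters, and their promoters are printed to show the regulatory sequence of the genes that define the cells. On chromosome 4 of GRCm39, on the minus strand, C1qb (136606009 to 136613511), C1qc (136616466 to 136620376) and C1qa (136623223 to 136626161) are neighbours. On the plus strand of chromosome 11 follow Ccl2 (81926397 to 81928279), Ccl7 (81936532 to 81938351) and Ccl12 (81992645 to 81994466). Each sequence runs from 170 bases before to 30 bases after the annotated start, 5′ to 3′ on the strand of the gene, and covers chr4:136626132-136626331 for C1qa, chr4:136613482-136613681 for C1qb, chr4:136620347-136620546 for C1qc, chr11:81926227-81926426 for Ccl2, chr11:81936362-81936561 for Ccl7 and chr11:81992475-81992674 for Ccl12. Capitals mark matches on either strand to the searched motifs.
C1qa: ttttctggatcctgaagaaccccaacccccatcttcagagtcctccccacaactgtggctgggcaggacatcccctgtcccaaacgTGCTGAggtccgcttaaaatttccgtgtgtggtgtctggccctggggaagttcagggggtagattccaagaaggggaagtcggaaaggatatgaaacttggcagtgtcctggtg
C1qb: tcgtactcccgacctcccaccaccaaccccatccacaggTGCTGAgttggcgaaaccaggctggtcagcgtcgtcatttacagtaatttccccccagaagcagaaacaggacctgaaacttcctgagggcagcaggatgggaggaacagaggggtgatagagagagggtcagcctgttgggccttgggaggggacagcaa
C1qc: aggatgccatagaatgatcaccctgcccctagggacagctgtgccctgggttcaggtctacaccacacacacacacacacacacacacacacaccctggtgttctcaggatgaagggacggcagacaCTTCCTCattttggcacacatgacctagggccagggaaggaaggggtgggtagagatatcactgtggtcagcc
Ccl2: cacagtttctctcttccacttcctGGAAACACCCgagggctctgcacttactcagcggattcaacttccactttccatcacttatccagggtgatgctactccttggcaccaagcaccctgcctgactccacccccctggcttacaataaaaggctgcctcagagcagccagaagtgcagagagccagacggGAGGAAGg
Ccl7: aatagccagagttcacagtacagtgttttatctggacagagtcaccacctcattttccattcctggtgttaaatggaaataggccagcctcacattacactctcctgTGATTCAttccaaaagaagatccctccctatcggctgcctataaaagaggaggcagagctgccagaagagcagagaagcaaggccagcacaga
Ccl12: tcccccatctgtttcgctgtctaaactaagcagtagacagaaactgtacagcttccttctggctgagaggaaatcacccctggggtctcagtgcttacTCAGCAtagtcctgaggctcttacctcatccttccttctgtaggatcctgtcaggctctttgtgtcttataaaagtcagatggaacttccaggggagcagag

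The motifs searched were the PU.1 core GAGGAAG, the MAF half-site TGCTGA, the AP-1 site TGANTCA, the kappaB site (GGG and TTTCC with NN between them) and an interferon response element-like pair of GAAA with NN between them, where N is any base. Matches were placed by their first base, counted from the start of transcription. The C1qa and C1qb promoters held a MAF half-site on the strand of the gene, at -84 and -131, and Ccl12 held it on the opposite strand at -72. MAF half-sites were present in 12.5% of 21501 promoters of the same length. The C1qc promoter held the PU.1 core on the opposite strand at -43 and Ccl2 held it at 23, against 8.99% of all promoters. Ccl2 also had a kappaB match on the opposite strand at -146 (1.33% of all promoters), and Ccl7 had an AP-1 match at -63 (4.82%). None of the 6 promoters held the interferon response element-like letters, which 2.26% of all promoters did. C1qa, C1qb and Ccl12 held the MAF half-site alone, the other promoters had sets of their own, and a match of letters is a description of the sequence only.

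The rule was first set out in the values that chose the members. In the control library members had a median of 3404 C1q counts per 1e6 UMIs of the cell (CPM), from 1262 to 14067, against a median of 491 in the other pool cells. Their median for Ccl7 and Ccl12 together was 1298 CPM, from 251 to 7455, whereas 49.6% of the other pool cells had no such UMI. Mutant members had lower shares, with medians of 1146 CPM for C1q and 184 CPM for Ccl7 and Ccl12. In the whole mutant pool 71.0% of cells had no Ccl7 or Ccl12 UMI and 36.0% had no C1q UMI, compared with 42.2% and 10.8% of the control pool. Thus the same percentile was reached at a lower level in the mutant library. There, 82 members (28.9%) entered with a lone Ccl7 or Ccl12 UMI, which no control member did.

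**Figure D1:**
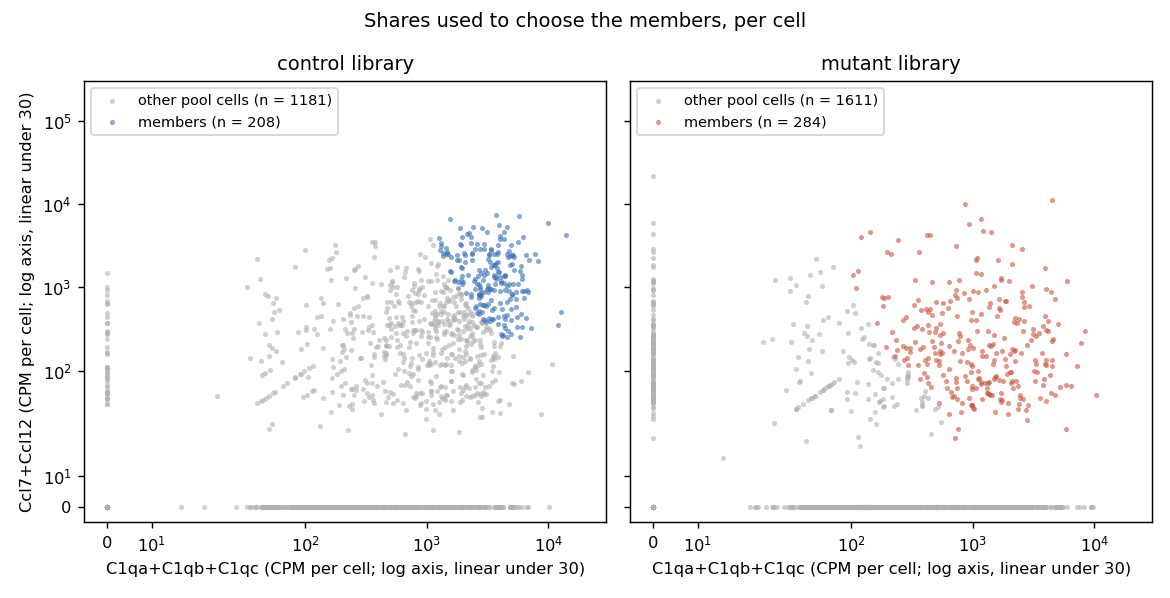
Each point is a pool cell of the control library (left) or the mutant library (right), placed by its C1q share (x axis) and its Ccl7 and Ccl12 share (y axis), both in CPM of the cell on a log axis that is linear under 30 CPM. Coloured points are the 208 and 284 members, which reach down to lower values on both axes in the mutant library.

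A class taken from a per-cell score is a range and not a cell type, and the score had no gap at its threshold. The last control member scored 79.0 rank points (1803 CPM C1q and 983 CPM Ccl7 and Ccl12) and the first cell outside scored 78.7 (1918 and 812 CPM). The last mutant member scored 72.5 (108 and 975 CPM) and the first cell outside 72.4 (219 and 146 CPM). Within 1 rank point of the threshold lay 13 members and 19 other cells of the control library, and 11 and 12 of the mutant library. Only 84 control members (40.4%) and 71 mutant members (25%) were in the top 15% of both shares, and 16 and 51 were in the top 15% of neither. Across pool cells the shares had a Spearman coefficient of 0.46 (control) and 0.19 (mutant), as a description over cells that share a library. At the control threshold, 33 mutant pool cells (1.74%, 1.20 to 2.44) would have been members. Ranked over both libraries together, 392 control and 101 mutant cells would have been.

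Median UMIs per member were 19199.5 for control and 19484.5 for mutant cells, against 19490 and 17948 in the other pool cells. Mutant members were somewhat deeper than their pool, with quartiles of 14141 and 26080 UMIs against 12885 and 23974, and over mutant pool cells the score had a Spearman coefficient of 0.155 with depth (0.054 in the control library). Median mitochondrial shares were 1.82% and 1.12% in members and 1.95% and 1.31% in the others, and median ribosomal protein shares were 18.3% and 15.1% against 21.5% and 16.5%. Counts of genes with totals that leave out mitochondrial and ribosomal protein genes are given beside those they move. Of the barcodes marked as likely doublets, 0 control and 4 mutant ones were members. The libraries shared 8 barcode sequences, 0 of them among members. In the members Arid1a itself was at 45.9 CPM in the control and 16.4 CPM in the mutant library (log2 ratio -1.48, -1.85 to -1.12). Reads at the end of the transcript are counted whether or not the floxed part has been removed, so this level does not measure recombination.

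Free RNA was gauged in cells of the neutrophil gate, although 2 of the 89 mutant ones passed the members' threshold. A Ccl7 or Ccl12 UMI was seen in 5.26% of 19 such control barcodes and 7.87% of 89 mutant ones, at median depths of 7523 and 9907 UMIs, against 50.4% and 16.4% of the pool cells outside the members. Thinned to 5000 UMIs per cell, 99.0% of control and 68.7% of mutant members kept a Ccl7 or Ccl12 UMI, as did 33.5% and 8.01% of the other pool cells. Thinned values were not computed for the gate. C1q UMIs were seen in 21.1% of the control and 23.6% of the mutant gate barcodes, which summed to 295 and 106 CPM, against 87.3% and 57.7% of the pool cells outside the members. The mutant member with the lowest C1q share had 103 CPM, which is no higher than that gate level, and the lowest control member had 1262 CPM. Being macrophages by label, the members carried macrophage transcripts. Adgre1, the F4/80 antigen, was at 265 CPM in control members and 662 CPM in mutant members. Csf1r, the M-CSF receptor, was at 347 and 467 CPM, and Cd68 was at 685 and 760 CPM. Mertk, a receptor for apoptotic cells, was sparse at 7.21 and 8.80 CPM.

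Tmem37, named as a marker of these cells although the rule did not use it, was only slightly higher in them. It was at 58.6 CPM in control members against 34.8 CPM in the other control pool cells (log2 ratio 0.75, 0.54 to 0.96), and at 21 against 16.7 CPM in the mutant library (0.33, 0.03 to 0.61). Against all other pool cells the label therefore held in Tmem37 in the control library. In the mutant library it held by a ratio whose interval came close to 0. Pool cells outside the members but in the top 15% of the C1q share alone were at 48.7 CPM (38.4 to 61.0) in the control library. In the mutant library such cells were at 25.9 CPM (20.3 to 32.4), no lower than members. Cells in the top 15% of the chemokine share alone were at 41.8 and 20.2 CPM.

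The summed levels of the rule genes follow as a description, since they chose the cells. Ccl7 was at 1531 CPM in control members and 179 CPM in the other control cells, and at 543 and 54.5 CPM in the mutant library. Ccl12 was at 196 and 29.3 CPM, and at 71.2 and 10.9 CPM. C1qb had the most UMIs of the C1q chains, with 1909 and 541 CPM in the control and 817 and 229 CPM in the mutant library. C1qa was at 954 and 186 CPM, and at 336 and 77.5 CPM. C1qc was at 827 and 214 CPM, and at 396 and 108 CPM, so that it was below C1qa in control members and above it in mutant members. The mix within each family is part of that description. C1qa made up 25.9% of the C1q UMIs of control members (25.2 to 26.6) and 19.8% of those of the other control cells, and 21.7% and 18.7% in the mutant library. Ccl7, on which cells were chosen while Ccl2 was not, made up 34.2% of the Ccl2, Ccl7 and Ccl12 UMIs of control members against 18.9% elsewhere in that pool, and 22% against 6.89% in the mutant library.

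All of these levels were lower in the mutant library, in members and in the other cells alike. In members the log2 ratio of mutant over control was -1.51 for C1qa, -1.22 for C1qb, -1.06 for C1qc, -1.49 for Ccl7 and -1.46 for Ccl12. In the other pool cells it was -1.26, -1.24, -0.98, -1.72 and -1.42. In both libraries C1qb and Ccl7 had the most UMIs of the rule genes in members. Taking ranks over both libraries, which sets a common threshold, brought C1qa and C1qc in members to 0.032 and 0.023.

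With the rule genes left out, 4763 genes had a mean of at least 20 CPM in the control library. Of these, 183 (3.84%) were at least 1.5-fold higher in members than in the other pool cells, and 82 (1.72%) at least 1.5-fold lower. In the mutant library 56 of 5086 were higher (1.1%) and 39 lower (0.767%). With totals that leave out mitochondrial and ribosomal protein genes, 158 were higher and 138 lower in the control library. The median log2 ratio of all genes was -0.01 in both libraries, and the central 90% of genes lay between -0.40 and 0.52 in the control and between -0.29 and 0.35 in the mutant library. Of 4565 genes compared in both libraries, rule genes left out, 35 were at least 1.5-fold higher in members of both and 16 lower in both. Such a ratio in opposite directions was seen for 1 gene, Ccl5. The 12 genes with the highest and the 8 with the lowest ratios in both libraries are among those described next.

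**Figure D2:**
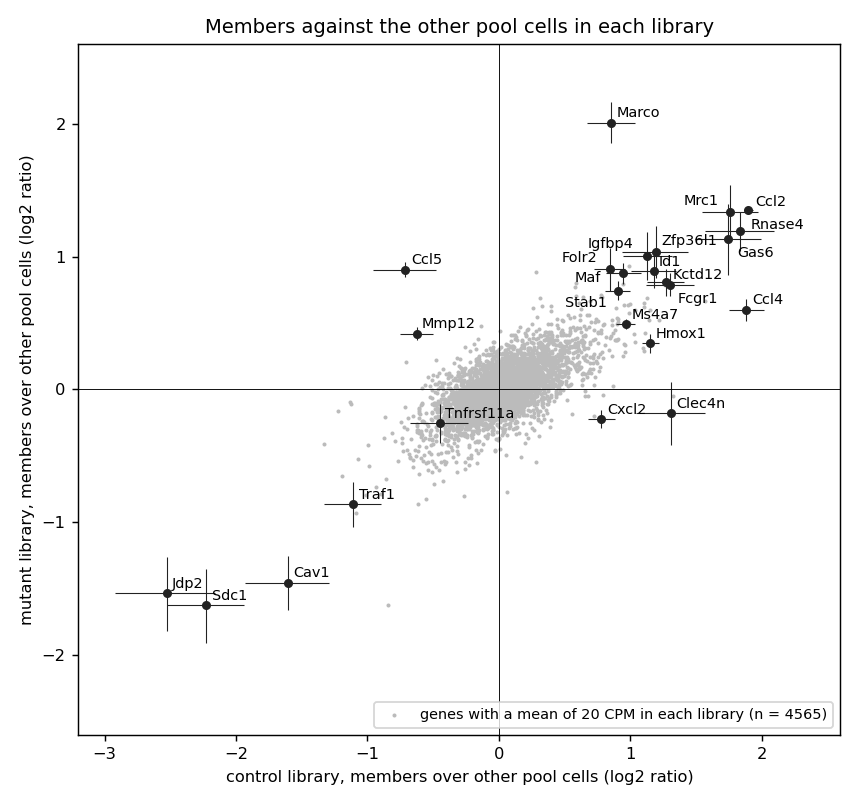
Each grey point is a gene, placed by its log2 ratio of members over other pool cells in the control library (x axis) and in the mutant library (y axis), and black points with bars are named genes with 95% counting intervals. Ccl2, Mrc1, Gas6 and Rnase4 lie far up on both axes, Jdp2, Sdc1 and Cav1 far down on both, and Ccl5 and Mmp12 lie on opposite sides, and 3 of the 4565 genes fall outside the axes.

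Among other chemokines, 7 of 11 were at least 1.5-fold higher and 1 lower in control members, with a list median of 0.78, and 4 of 11 were higher in mutant members, with a median of 0.28. Ccl2, the main monocyte attractant of the same gene cluster, was at 2752 CPM in control members against 738 CPM in the other cells, and at 1850 against 726 CPM in the mutant library (1.90, 1.87 to 1.93, and 1.35, 1.32 to 1.38). Its level outside the members was alike in both libraries, and that in the members was lower in the mutant library (-0.57, -0.61 to -0.53). Pf4, a platelet-type chemokine that macrophages also make, was at 1550 against 711 CPM in the control and 1160 against 719 CPM in the mutant library (1.12 and 0.69). Ccl6 was higher by 0.90 and 0.54 and Ccl3, an inflammatory chemokine that binds Ccr1, by 0.96 and 0.28. Ccl9, a chemokine that RANKL induces in OCs, was lower in members by log2 ratios of -0.30 and -0.27.

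Other chemokines differed between the libraries in how members related to their pool. Ccl4, an inflammatory chemokine, was at 187 against 50.7 CPM in the control and 255 against 168 CPM in the mutant library (1.88, 1.75 to 2.01, and 0.60, 0.52 to 0.68). Cxcl2, which attracts neutrophils, was at 232 against 135 CPM in control members and others, and at 335 against 391 CPM in the mutant library (0.78 and -0.22). Ccl5, which attracts T cells and monocytes, was lower in control members (38.5 against 62.9 CPM, -0.71) and higher in mutant members (628 against 336 CPM, 0.90). A few cells carried these Ccl5 levels, since 35.0% of the UMIs of control members and 26.6% of those of mutant members came from 1 cell each. Without these cells the ratios were -1.33 and 0.46. Cxcl10, an interferon-induced chemokine, was at 180 against 114 CPM in the control library, with 23.4% of the members' UMIs in 1 cell, and at 271 against 273 CPM in the mutant library. Of the rest of the Ccl cluster, Ccl8 was counted with 14 UMIs in control members (3.36 CPM, against 0.62 CPM in the others) and with 5 UMIs in mutant members.

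Few receptors for these ligands were measurable. Of the chemokine receptors, 4 could be compared among control cells and 6 among mutant cells, and none reached 1.5-fold in either direction between members and others, with medians of 0.31 and 0.24. Ccr2, the receptor through which Ccl2, Ccl7 and Ccl12 act, was at 2.16 CPM in control members and 4.06 CPM in mutant members, against 2.27 and 12.5 CPM in the other cells. Cx3cr1, the fractalkine receptor of resident macrophages, was at 30.8 CPM in control members and 204 CPM in mutant members (log2 ratio of mutant over control 2.73).

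Scavenger and uptake receptors were among the genes highest in members. Of 12 measured in the control library 9 were at least 1.5-fold higher and none lower (median 0.82), and of 13 in the mutant library 6 were higher and none lower (median 0.49). Mrc1, the mannose receptor CD206, was at 70.7 CPM against 20.8 CPM in the control and 50.1 against 19.8 CPM in the mutant library (1.76, 1.55 to 1.97, and 1.33, 1.13 to 1.54). Gas6, the bridging ligand that links apoptotic cells to Mertk and Axl, was at 50.0 against 14.9 CPM and 27.7 against 12.7 CPM (1.75 and 1.13). Folr2, a folate receptor of resident macrophages, was at 181 against 101 CPM and 74.1 against 39.6 CPM (0.85 and 0.90). Stab1, a clearance receptor for oxidised lipoprotein and matrix fragments, was at 304 against 163 CPM and 356 against 213 CPM (0.90 and 0.74). Smaller ratios were found for Msr1 (0.66 and 0.26) and Cd36 (0.69 and 0.24), both receptors for modified lipoproteins. Siglec1, a sialic acid receptor, was at 12.7 against 5.94 CPM and 48.4 against 28.6 CPM.

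Marco and Clec4n were exceptions within the receptors. Marco, a scavenger receptor for bacteria and particles, was at 78.1 against 43.1 CPM in the control and 106 against 26.4 CPM in the mutant library (0.86 and 2.01), but 15.1% and 19.5% of the members' UMIs came from 1 cell each. Taking the top 10% in place of the top 15%, the control ratio of Marco turned to -0.35 and the mutant ratio was 2.51. Clec4n, the fungal lectin receptor Dectin-2, was at 41.6 against 16.8 CPM in the control (1.31, 1.05 to 1.57) and at 29.1 against 33.0 CPM in the mutant library (-0.18, -0.42 to 0.05). Its difference between the libraries, -1.49, was among the lowest of all genes.

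Genes of resident tissue macrophages were higher in control members in 21 of 21 cases, 12 of them by at least 1.5-fold, with a median of 0.65, and 3 of 22 reached that ratio in mutant members, with a median of 0.30. Fcgr1, the high-affinity IgG receptor CD64, was at 83.4 against 33.8 CPM in the control and 240 against 139 CPM in the mutant library (1.30, 1.12 to 1.49, and 0.79, 0.70 to 0.87). Ms4a7 was at 518 against 265 CPM and 1138 against 809 CPM (0.97 and 0.49). Dab2, an endocytic adaptor, differed by 0.88 and 0.37, and Selenop, which carries selenium, by 1.00 and 0.64. Igf1, a growth factor of resident macrophages, differed by 0.86 and 0.25. Apoe, the lipid carrier, was at 189 against 134 CPM and 1665 against 1167 CPM, so that the ratio of members to others was alike in both libraries (0.49 and 0.51) while the levels were far apart.

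Transcription factors that hold back OC formation were described next. Of 7 OC repressors 5 were at least 1.5-fold higher in control members (median 0.81) and 3 in mutant members (median 0.53), and none was lower. Maf, a macrophage transcription factor of the large Maf family, was at 148 against 76.8 CPM in the control and 294 against 160 CPM in the mutant library (0.95, 0.81 to 1.08, and 0.87, 0.79 to 0.95). Id1 was at 95.2 against 42.1 CPM and 125 against 67.7 CPM (1.18 and 0.89). Id2 followed with 0.95 and 0.79 and Id3 with 0.69 and 0.66, all of them inhibitors of helix-loop-helix factors. Irf8, an interferon regulatory factor lost as OCs form, differed by 0.90 and 0.53. In the wider list of macrophage transcription factors, 5 of 22 were higher and 3 lower in control members (median 0.18), and 1 of 24 was higher in mutant members (median 0.06). Bhlhe40, a transcriptional repressor, was lower there, at 10.6 against 35.4 CPM in the control and 8.63 against 18.1 CPM in the mutant library (-1.74 and -1.07).

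Several OC genes that the rule did not use were lower in members. Jdp2, an AP-1 partner needed for OC formation, was at 14.7 CPM in members against 84.6 CPM in the others (-2.53, -2.92 to -2.16), and at 19.5 against 56.3 CPM in the mutant library (-1.53, -1.82 to -1.26). Atp6v0d2, a proton pump subunit needed for OC fusion, was at 1.92 against 15.2 CPM and 6.77 against 19.0 CPM (-2.98 and -1.49). Acp5, the phosphatase TRAP, was at 11.3 against 23.1 CPM and 39.4 against 66.6 CPM (-1.03 and -0.76). Nfatc1, the master regulator of OCs, was at 13 against 25.5 CPM in the control (-0.98, -1.41 to -0.57) and at 23.5 against 26.8 CPM in the mutant library (-0.19, -0.46 to 0.07). Tnfrsf11a, the RANKL receptor RANK, was at 46.9 against 64.1 CPM and 75.1 against 89.6 CPM (-0.45 and -0.25). For the whole OC list, per-cell medians of the summed level were 341 CPM in control members against 521 CPM in the other cells, and 526 against 677 CPM in the mutant library. Among list genes with a mean of 20 CPM, 1 of 4 was at least 1.5-fold lower in control members (median -0.42) and 2 of 6 in mutant members (median -0.34). The rule limited Ctsk, Mmp9 and Dcstamp in members and in the other pool cells alike.

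Several further genes were low in members of both libraries. Sdc1, the proteoglycan syndecan-1, was at 24.0 against 112 CPM in the control and 19.5 against 60.0 CPM in the mutant library (-2.23 and -1.62). Cav1, the coat protein of caveolae, was at 21.2 against 64.3 CPM and 36.4 against 99.8 CPM (-1.61 and -1.46). Traf1 and Malt1, adaptors in NF-kappaB signaling, differed by -1.11 and -0.86 and by -1.08 and -0.93. On the higher side, Rnase4, a secreted ribonuclease, was at 47.8 against 13.4 CPM and 93.2 against 40.9 CPM (1.83 and 1.19). Zfp36l1, an mRNA decay factor, was higher by 1.19 and 1.03, and Igfbp4, which binds insulin-like growth factors, by 1.13 and 1.01. Kctd12 (1.27 and 0.81) and Rap2a, a small GTPase (0.99 and 0.93), complete the 12 highest genes.

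Along the score these differences were gradual. The pool of each library was ordered by score and divided into 20 bins, of which the top 3 are the members. No rule gene was counted in the lowest 5 mutant bins or the lowest control bin, so the order of the cells within these is arbitrary, and for the mutant library the range over those 5 bins is given. Ccl2 ran from 103 CPM in the lowest to 3508 CPM in the highest control bin, and from 342 to 462 CPM in those mutant bins to 2440 CPM in the highest. Mrc1 ran from 3.42 to 84.5 CPM in the control library, and from 6.34 to 19.0 CPM up to 67.7 CPM in the mutant library. For Id1 the control values were 25.7 and 92.5 CPM, and the mutant values were 28.2 to 61.8 CPM and 154 CPM. Fcgr1 had 4.28 and 109 CPM in the control library, and 72.5 to 155 CPM and 330 CPM in the mutant library. Jdp2 ran the other way, from 233 to 10.9 CPM in the control library and from 53.2 to 112 CPM down to 17.6 CPM in the mutant library. Sdc1 did so too, from 180 to 19.7 CPM and from 68.3 to 84.1 CPM down to 8.54 CPM.

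**Figure D3:**
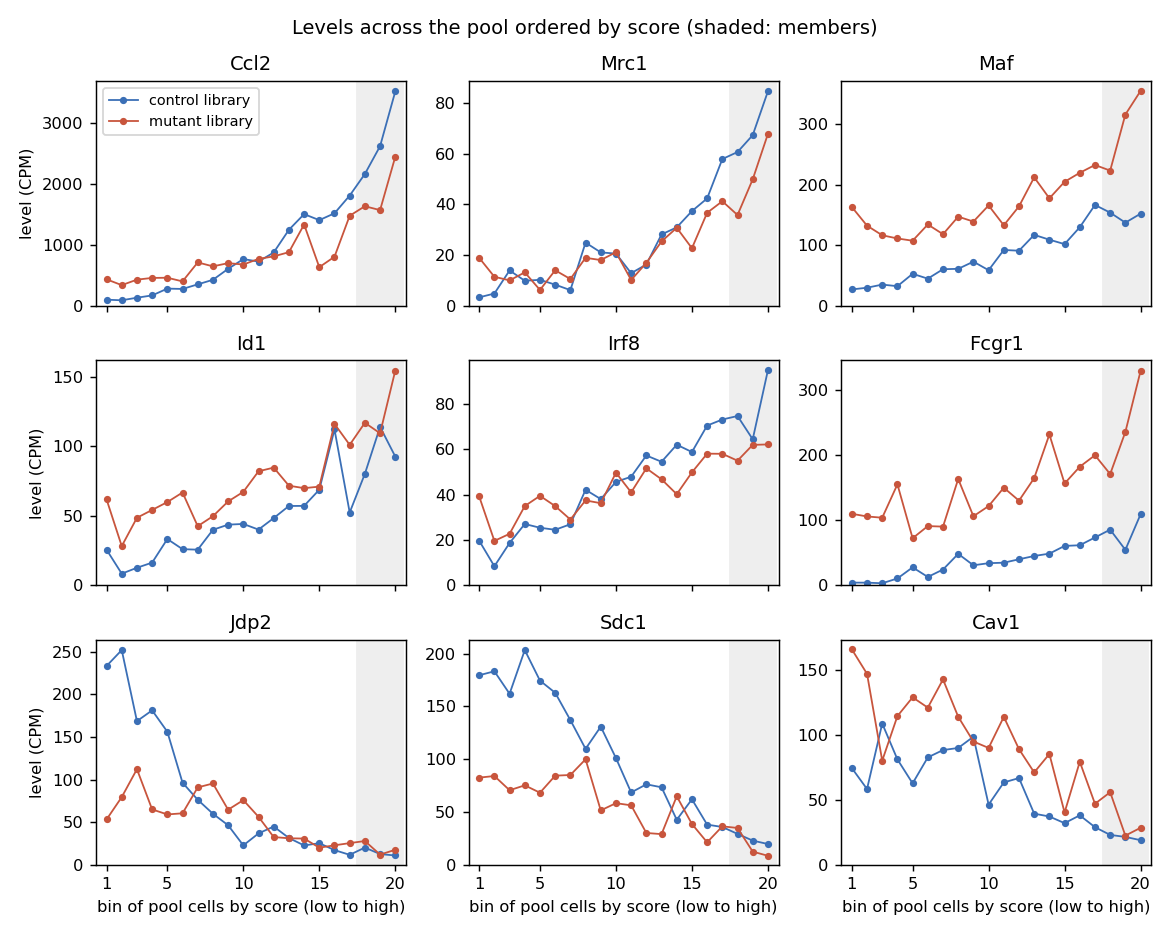
Each panel gives the level of a gene (y axis, CPM) in 20 bins of pool cells from the lowest to the highest score (x axis) for the control (blue) and mutant (red) library, with the members' bins shaded and the lowest 5 mutant bins in arbitrary order. Levels of Ccl2, Mrc1, Maf, Id1 and Fcgr1 are higher and those of Jdp2, Sdc1 and Cav1 lower toward the members, without a step at the shaded region.

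Members had other members among their nearest neighbours more often than the other pool cells did, in genes that the rule did not use. Among the 20 nearest neighbours of a cell in 30 principal components, computed without the rule genes and Tmem37, 35.6% were members for control members and 10.5% for the other control cells. In the mutant library the shares were 28.4% and 13.1%, and members are 15% of each pool. For 52 control members (25%) and 34 mutant members (12%), at least 50% of neighbours were members, and for 3 and 9 none was. Most members thus had a majority of neighbours outside the group, in both libraries.

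To see which genes went with C1q and which with the chemokines, pool cells in the top 15% of one share only and outside the members were set beside them, 75 and 67 cells in the control library and 155 and 111 in the mutant library. Ccl2 went with the chemokine share, at 2701 CPM in control cells high in Ccl7 and Ccl12 alone, close to the 2752 CPM of members, and at 710 CPM in those high in C1q alone, close to the 604 CPM of the remaining pool. In the mutant library it was at 2388 CPM in the chemokine-only cells, above the 1850 CPM of members. Ccl4 showed the same order in the mutant library, with 434 CPM in chemokine-only cells and 255 CPM in members, whereas in the control library members were highest, with 187 CPM against 93.9 CPM. Apoe, and in the control library Folr2, went with C1q. Apoe was at 500 CPM in control cells high in C1q alone and 75.4 CPM in chemokine-only cells, around the 189 CPM of members, and at 2957 and 1452 CPM in the mutant library, where the remaining pool was at 943 CPM. Folr2 was at 202 and 120 CPM in the control library. In the mutant library it was at 75.2 and 60.7 CPM, with overlapping intervals, both above the 33.8 CPM of the remaining pool.

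Other genes were high in all of these groups. Mrc1 was at 50.0 CPM in control C1q-only and 43.9 CPM in chemokine-only cells, between the 17.1 CPM of the remaining pool and the 70.7 CPM of members. Maf was at 119 and 120 CPM, between 70.7 and 148 CPM, and in the mutant library at 231 and 279 CPM, between 142 and 294 CPM. Fcgr1 was at 68.0 and 59.6 CPM, between 29.5 and 83.4 CPM. Jdp2 was correspondingly low in both, at 22.4 and 25.4 CPM against 93.2 CPM in the remaining pool. Marco was unlike the others, at 189 CPM in control C1q-only cells and 10.3 CPM in chemokine-only cells, with members between them at 78.1 CPM. In the mutant library Marco was highest in members, at 106 CPM, with 30.3 CPM in C1q-only cells, 15.8 CPM in chemokine-only cells and 26.8 CPM in the remaining pool. These groups, too, were chosen by their C1q and Ccl7 and Ccl12 shares, and the differences between them were not tested.

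**Figure D4:**
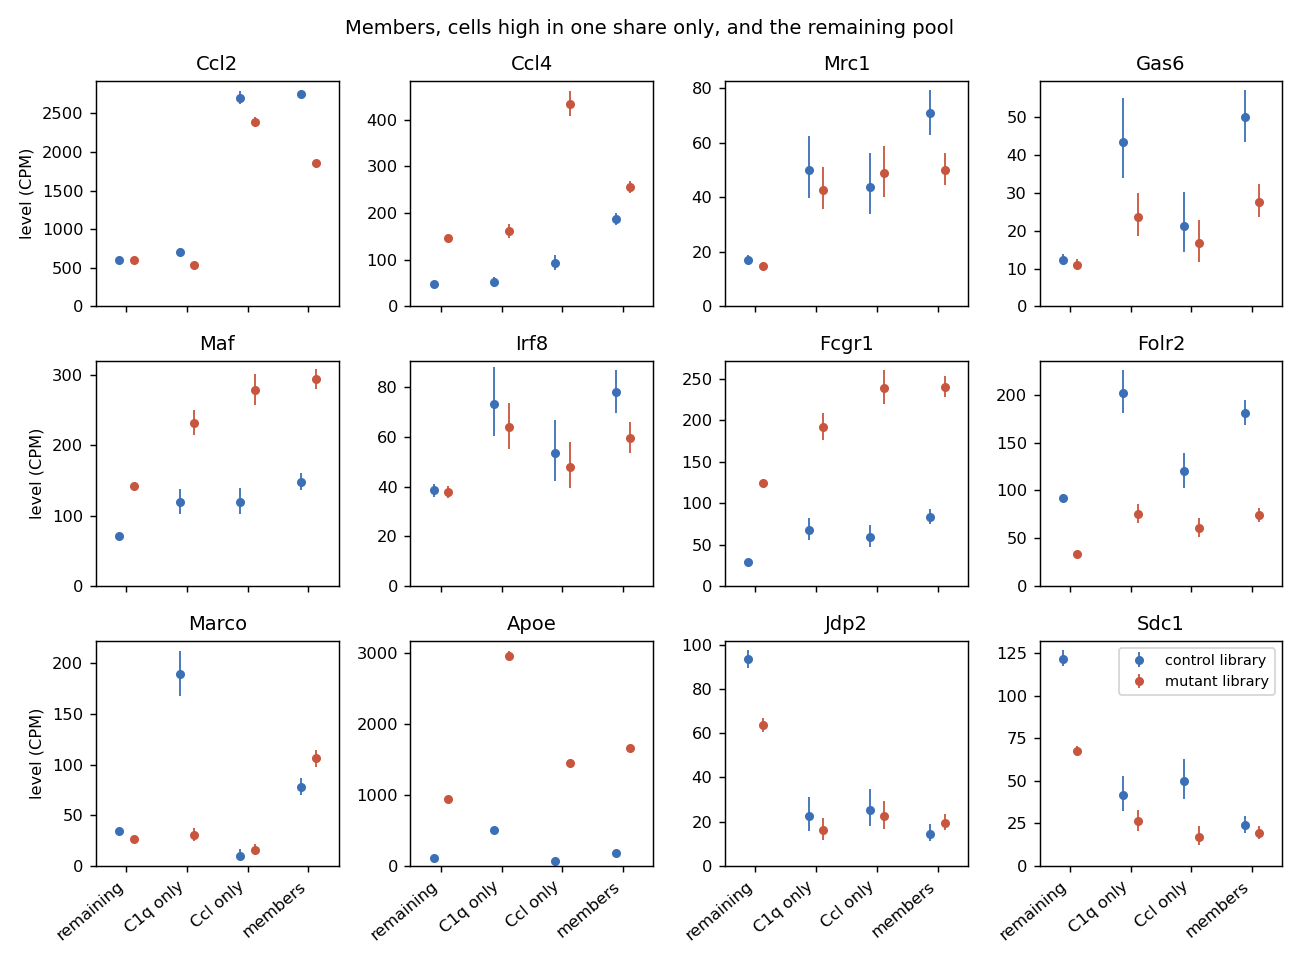
Each panel gives the level of a gene (y axis, CPM, with 95% counting intervals) in the remaining pool, in cells high in C1q only, in cells high in Ccl7 and Ccl12 only and in members, for the control (blue) and mutant (red) library. Ccl2 is high in chemokine-only cells and members, Apoe and control Marco peak in C1q-only cells, and Jdp2 and Sdc1 are low in all but the remaining pool.

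Complement genes other than the C1q chains showed small differences. Of 8 measured, 1 was at least 1.5-fold higher in control members and 0 in mutant members, with medians of 0.38 and 0.12. The gene above the threshold was Cfp, the alternative pathway factor properdin, at 461 against 290 CPM in the control and 278 against 239 CPM in the mutant library (0.67 and 0.22). C3, the central component, was at 76.2 against 82.7 CPM and 148 against 168 CPM. The anaphylatoxin receptors C3ar1 (0.43 and 0.24) and C5ar1 (0.50 and 0.28) were slightly higher in members.

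Most lysosomal and haem-handling genes had ratios above 0, few of them reaching 1.5-fold. Of 19 lysosomal genes 17 were above 0 and 3 at least 1.5-fold higher in control members (median 0.31), and of 20 in the mutant library 17 were above 0 and 0 reached that ratio (median 0.21). Ctsc, the protease cathepsin C, was at 185 against 90.3 CPM and 369 against 289 CPM (1.03 and 0.36). Of 7 iron and haem genes 7 were above 0 in control members and 6 in mutant members, and 1 and 0 reached 1.5-fold (medians 0.32 and 0.09). That gene was Hmox1, haem oxygenase, at 691 against 310 CPM in the control (1.15, 1.09 to 1.22) and 326 against 256 CPM in the mutant library (0.35, 0.28 to 0.42). Of 12 lipid genes 1 was higher and 1 lower in control members (median 0.07), and of 13 in mutant members 1 was lower (median 0.13).

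Interferon-stimulated genes differed little between members and their pool in the mutant library and somewhat more in the control library. Of 30 such genes in the control library 24 were above 0, 4 at least 1.5-fold higher and 1 lower (median 0.22), where 3.84% of all genes were that much higher. Of 39 in the mutant library 22 were above 0 and 0 reached 1.5-fold in either direction (median 0.02). Their summed level was 8041 CPM in control members and 7516 CPM in the other control cells, and 17918 and 18111 CPM in the mutant library. Ifit2 was higher in control members by 1.33, yet 42.7% of the members' UMIs came from 1 cell, without which the ratio was 0.53. The 4 interferon and interferon receptor genes measured in the control library had a median of -0.02, and the median was 0.01 in the mutant library.

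The remaining lists were read in the same way. Inflammatory genes were higher in 2 of 9 cases in control members (median 0.43) and lower in 1 of 12 in mutant members (median 0.01). That lower gene had a log2 ratio of -7.10, the value of the median neutrophil marker of the mutant library described below. Of 12 AP-1 genes 1 was higher and 1 lower in control members (median 0.18), and none was in mutant members (median 0.06). Heat-shock genes (medians -0.27 and -0.07), replication genes (-0.24 and -0.13) and BAF subunits (-0.06 and -0.05) had no gene past 1.5-fold in either library. Monocyte genes were higher in 1 and lower in 1 of 5 cases in control members (median -0.20), and 2 of 7 were lower in mutant members (median -0.30).

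Markers of other cells were rarer in members than in the pool around them. The neutrophil list summed to 22.4 CPM in control members against 492 CPM in the other pool cells, and to 26.7 against 1678 CPM in the mutant library, where S100a8 was at 21.5 against 666 CPM. All 3 neutrophil genes with a mean of 20 CPM in the control library and all 5 in the mutant library were at least 1.5-fold lower. These levels came from a few pool cells, since without cells in the neutrophil or class II gate (10 control and 61 mutant pool cells) the control ratios of S100a8, S100a9 and Ngp were 0.33, 0.22 and 1.54. Of class II genes 1 of 2 was lower in control and 3 of 4 in mutant members (median -2.26), and Cd74 was at 18.7 against 33.6 CPM and 34.2 against 106 CPM, with 38.1% of the mutant members' UMIs in 1 cell. Without the gated cells the control ratio of Cd74 was 0.38. The summed B cell markers were at 0.721 and 3.21 CPM in members, T cell, erythroid, mast and dendritic cell markers were at 0 in both, and stromal markers were at 0 and 0.169 CPM.

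Between the libraries, members differed in many more genes than members did from their own pool. Of 4970 genes that averaged 20 CPM or more in members, 545 (11%) were at least 1.5-fold higher and 191 (3.84%) at least 1.5-fold lower in mutant than in control members, and the median of all genes was 0.08. With median-of-ratios scaling the split was 445 higher and 264 lower. Interferon-stimulated genes were higher in mutant members in 36 of 37 cases, with a median of 1.46, and in the other pool cells in 35 of 37, with a median of 1.64. Irf7, the interferon regulatory factor, was at 134 CPM in control and 665 CPM in mutant members (2.32), and Isg15, the ubiquitin-like modifier, was at 209 and 764 CPM (1.87). The largest ratios in members were those of AW112010 (9.37 and 253 CPM, 4.75), Ly6i (4.51), Ly6a (4.34), H2-Q7 (4.28), Ms4a4c (4.20) and Ccl5 (4.03), of which Ly6i, Ly6a, H2-Q7 and Ms4a4c belong to families of similar genes that could share reads. In the other pool cells the ratio was 4.02 for AW112010 and 4.26 for Ly6a, but 2.42 for Ccl5.

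The same comparison within the groups of genes that marked members gave mixed directions. Tissue-macrophage genes were at least 1.5-fold higher in mutant members in 13 of 23 cases and lower in 1 (median 0.87). Apoe was at 3.14, Fcgr1 at 1.53, Adgre1 at 1.32 and Ms4a7 at 1.13, and the lower gene was Tmem37 at -1.48. Scavenger receptors were higher in 3 and lower in 2 of 13 cases (median 0.16), with Siglec1 at 1.93 and Folr2 at -1.29. Other chemokines were higher in 4 of 11 cases and lower in none (median 0.45), chemokine receptors higher in 2 of 5 (median 0.41), complement genes higher in 2 and lower in 1 of 8 (median 0.45) and lysosomal genes higher in 10 of 20 (median 0.58). OC repressors were higher in 1 case (median 0.30), with Id3 at 0.83. OC genes were higher in 2 of 4 cases (median 0.55), Acp5 among them at 1.80. Iron and haem genes were lower in 2 of 7 cases (median -0.45), with Hmox1 at -1.08. Most of these differences were seen in the other pool cells too. Medians there were 1.06 for tissue-macrophage genes, 0.39 for scavenger receptors, 1.06 for other chemokines and 0.59 for chemokine receptors. Complement genes had 0.62, lysosomal genes 0.75 and OC repressors 0.45. OC genes (0.39) and iron and haem genes (-0.22) were less far apart there than in members.

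Genes with the lowest levels in mutant relative to control members were mainly low throughout the mutant pool. Emp2, a membrane protein, was at 44.0 CPM in control and 3.55 CPM in mutant members (-3.63, -4.36 to -2.97), and the ratio was -3.94 in the other pool cells. Spp1, the secreted matrix protein osteopontin, was at 2598 and 375 CPM (-2.79, -2.86 to -2.73), and -2.56 elsewhere. Fxyd2 (-3.31), Tubb6 (-2.50), Ptgs1 (-2.36) and Uchl1 (-2.10) completed the 6 lowest. Lyz2, from whose locus LysM-Cre is expressed, was at 18974 CPM in control and 7277 CPM in mutant members.

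**Figure D5:**
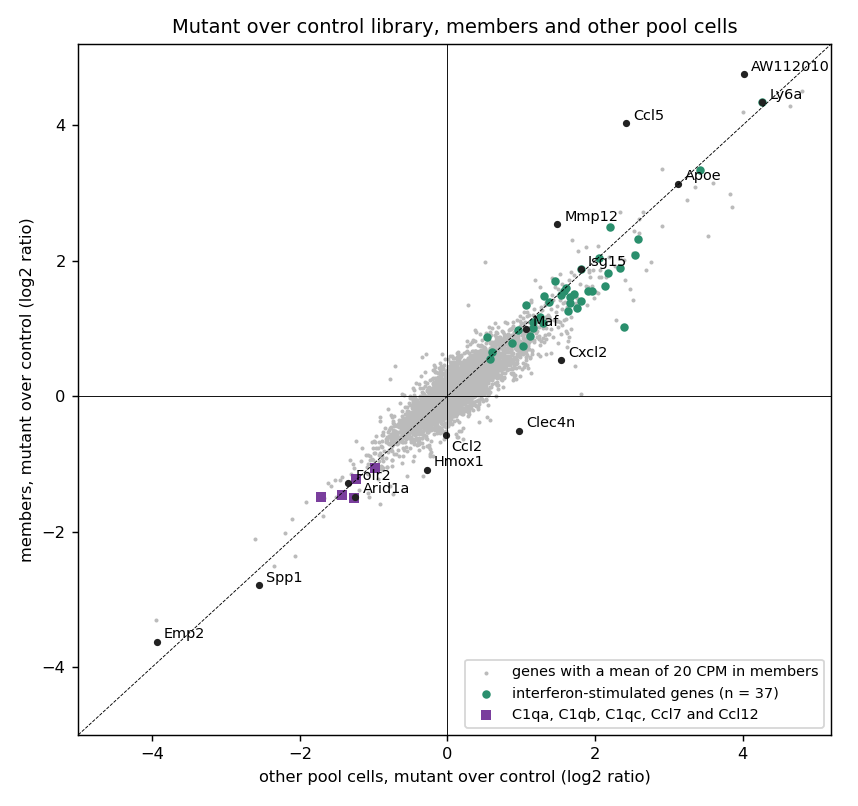
Each grey point is a gene with a mean of 20 CPM in members, placed by its log2 ratio of mutant over control in the other pool cells (x axis) and in members (y axis), with 37 interferon-stimulated genes in green and the rule genes as purple squares. Most genes lie along the dashed line of equal ratios, whereas Ccl5 and Mmp12 lie above it and Cxcl2, Clec4n, Ccl2 and Hmox1 below it.

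Some genes differed more, or less, between the libraries in members than in the rest of the pool. Among the highest differences were those of Ccl5 (1.61), Marco (1.15), Ahnak2 (1.06), Mmp12 (1.05) and Itgb7 (1.04). Mmp12, macrophage elastase, was at 140 against 215 CPM in control members and others and 810 against 605 CPM in the mutant library (-0.63 and 0.42). The lowest, beside S100a8, were those of Clec4n (-1.49), Ifit2 (-1.37), Ccl4 (-1.28), Cxcl2 (-1.005) and Lsp1 (-0.92). Hmox1 (-0.81) and Ccl2 (-0.55) also stood further above their pool in the control than in the mutant library. With 1 library per genotype these differences cannot be told apart from differences between any 2 cultures. Members of the mutant library also entered at lower levels, with a median of 3 Ccl7 and Ccl12 UMIs against 25 in control members. What part this had in the differences was not tested.

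Cells left out of the pool could also carry the transcripts of the rule. With their shares ranked against the pool, 313 of 3459 cycling control cells (9.05%, 8.11 to 10.1) and 580 of 3159 cycling mutant cells (18.4%) passed the threshold. Among cells with OC transcripts 28 of 1253 control cells (2.23%) and 28 of 258 mutant cells (10.9%) did, and among cells under 5000 UMIs 18 of 166 (10.8%) and 23 of 337 (6.82%). Each library had its own threshold, which was reached at lower levels in the mutant library, so these percentages cannot be compared between the libraries. Summed over cycling cells, C1q was at 1088 CPM in the control and 571 CPM in the mutant library. Ccl7 and Ccl12 together were at 254 and 105 CPM there. In cells with OC transcripts C1q was at 432 and 223 CPM, and the chemokines were at 103 and 112 CPM. The transcripts of the rule were thus found in cycling cells as well, in both libraries.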

How the data were processed

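Single-cell libraries of OC-induced BMDMs were prepared with a 10x Genomics kit that reads the end of each transcript. Raw UMI counts, with a row for each gene and a column for each barcode, were deposited and the file headers name Cell Ranger 6.1.0 as the pipeline the authors ran. GRCm39 is named as the genome. The study's methods name aggregation by the same pipeline, and it was not stated whether these counts precede it. Whether the strand entered the counting was not given, so levels of genes whose exons overlap another gene on the opposite strand (among them Gas6, Folr2, Stab1, Maf, Id2, Jdp2, Sdc1, Acp5, Selenop, Cx3cr1, Ly6a, Tubb6, Uchl1, Mmp12, Irf7 and Cxcl10) are uncertain.

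There were 6455 barcodes (164004706 UMIs) in the control and 5865 (131800059 UMIs) in the mutant library. Gene and mitochondrial filters left 6269 and 5663 cells, and 6101 and 5312 of these had at least 5000 UMIs. UMIs of a gene were summed over cells and divided by all UMIs of those cells (CPM), with exact Poisson intervals, and log2 ratios had exact conditional Poisson intervals. Shares of cells had exact Clopper-Pearson intervals. PCR copies are collapsed in UMIs, and the intervals cover counting error only. On simulated counts the summing and the intervals were tested before use. Nearest neighbours used the 2000 most variable genes without mitochondrial and ribosomal protein genes, and doublets were marked by how many of 50 neighbours were simulated pairs of cells (2 per barcode), at 0.8% per 1000 barcodes, and were kept. The neutrophil gate was at least 1% of UMIs in the neutrophil markers.

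The members and the gene lists were chosen with earlier results of these data known. Beyond the lists, named genes had the 12 highest or 8 lowest ratios of members over other pool cells with the same sign in both libraries, ranked by the smaller, the 6 highest and 6 lowest ratios of mutant over control members, and the 6 highest and 6 lowest differences between the libraries, all with a mean of at least 20 CPM. Coordinates came from GENCODE M39, matched by identifier for 31977 of 32544 entries. Mx1 and Mx2 were not analysed here, and some genes within the rule are not reported here. Python 3.11.15, numpy 2.4.6, scipy 1.17.1, pandas 2.3.3, scikit-learn 1.9.0 and matplotlib 3.10.9 were used.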

Additional observations from a re-analysis of the deposited data

Results flagged for a closer look

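For 5 named genes members stood on opposite sides of the other pool cells in the control and the mutant library, with both counting intervals away from 0. The difference of the log2 ratios, mutant minus control, was 1.61 for Ccl5, 1.05 for Mmp12, -1.005 for Cxcl2, -0.92 for Lsp1 and -0.45 for Ifit1. Each rests on 1 library per genotype, and the difference was not tested. In control members 32.8% of the Ifit1 UMIs came from 1 cell, and without it the control ratio was -0.30, on the same side as in the mutant library (-0.18).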

How the results depend on the processing

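No paired analysis was possible because each genotype had 1 library and the labels carry no replicate numbers. Counts of genes at least 1.5-fold apart moved most with the level required. With a mean of at least 5 CPM, control members had 451 genes higher and 255 lower than their pool, mutant members 167 and 136, and mutant over control members 1155 and 424. With at least 50 CPM these were 94 and 36, 24 and 16, and 256 and 96. Totals without mitochondrial and ribosomal protein genes gave 138 lower genes in control members and 288 in mutant over control members. Ranks over both libraries gave 392 control and 101 mutant members, with 118 genes higher and 114 lower in mutant members. The top 10% gave 69 lower genes in mutant members, equal weight per cell 59, and members with at least 2 Ccl7 and Ccl12 UMIs, an alternative chosen after seeing the data, 62.

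Directions turned for few named genes. Marco turned in control members with the top 10% (-0.35), and C1qa and C1qc in mutant over control members with ranks over both libraries (0.032 and 0.023). Without neutrophil and class II cells, also chosen after seeing the data, S100a8 (0.33), S100a9 (0.22), Ngp (1.54) and Cd74 (0.38) turned in control members, and Cd74 (-0.15) in mutant over control members. Named genes at least 1.5-fold apart numbered 78 in control members, 36 in mutant members and 97 in mutant over control members. Under each alternative 74 to 78, 36 and 95 to 97 of them had the same sign. At least 67, 31 and 84 were still 1.5-fold apart. The rule genes are among them, and their direction against the other pool cells was fixed by the choice of members. Others were named for extreme ratios in these same data, so these counts describe the named genes only. Members were defined by the counts described, and choosing them on a random part of the UMIs and measuring in the other part took cells of which 89.9% and 80.3% were members.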
